A study of Homo sapiens with 12 samples.

Results

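The genes described here are 34 targets of the hypoxia-inducible factors (HIF) that lie outside glycolysis: secreted factors, collagen and matrix enzymes, mitochondrial and mitophagy proteins, histone demethylases, transcription factors, and stress, lipid and other hypoxia-induced genes. They were matched by gene symbol to a list, and all 34 were found among the 26506 genes of the table. mRNA was sequenced in HK-2, an immortalised line of epithelial cells from the human proximal tubule, in 4 groups of 3 samples named after the short hairpin RNAs they carry. Luc976 served as the control group, since its name points to luciferase, which is no human gene; the hairpin of shVHL61 targets VHL, that of shKIM1-A1 targets KIM-1 (symbol HAVCR1), and both hairpins are present in shVHL61-KIM1A1. All 4 groups therefore share the HK-2 background and a hairpin, and each target was hit by a single hairpin sequence, named by the labels but not given. Effects of losing a target and other effects of its hairpin therefore cannot be told apart. No label says whether the 3 samples of a group were separate cultures, so the spread behind each p-value may be technical.

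HIF is a pair of a labile alpha subunit, HIF1A or EPAS1, and a stable partner, ARNT. With oxygen, prolyl hydroxylases mark the alpha subunit, and VHL, the recognition part of a ubiquitin ligase, binds the mark and sends it to the proteasome; without oxygen or VHL the dimer builds up and binds promoters and enhancers at a short core sequence. In the kidney tubule this system drives angiogenic, matrix, mitophagy and feedback genes, and its loss of control through VHL is the founding event of clear cell renal carcinoma. KIM-1 is a membrane receptor that injured proximal tubule cells display and use to take up dead cells and lipids.

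The core sequence recognised by HIF holds the letters ACGTG, so the 250 bases before the transcription start were searched for them on both strands. RefSeq promoter entries (GRCh38.p14) were found for 27 of the 34 members; VEGFA, STC1, LOXL2, BNIP3L, NDRG1, HILPDA and ANKZF1 had none. ACGTG stood in the window of 19 of the 27 (70.4%), against 28.9% of 10549 tested genes with an entry and 21.7% of all 27305 genes with one. CACGTG, which contains ACGTG and reads the same on both strands, stood in 10 of the 27 (37.0%), against 11.2% and 7.73%. For 7 members several start sites were searched. A match is a description of these letters, not a site of binding. No match was found for ADM, STC2, P4HA2, PLOD1, KDM3A, RORA, VLDLR and TMEM45A, which says only that the letters are not in these windows.

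Shown here are windows of 7 members whose levels carry the results below: 5 that rose with both hairpins and hold the core, ANGPTL4, which holds it and fell, and ADM, which rose and does not. They run 5′ to 3′ on the gene's strand, end at the base before the start, and have ACGTG or its reverse complement (with CACGTG where they coincide) in capitals. The windows are chr10:131981924-131982173 (minus strand) for BNIP3, chr10:73096867-73097116 (minus) for P4HA1, chr3:122383932-122384181 (plus) for FAM162A, chr12:26125038-26125287 (minus) for BHLHE41, chr1:203026241-203026490 (plus) for PPFIA4, chr19:8363905-8364154 (plus) for ANGPTL4 and chr11:10304823-10305072 (plus) for ADM.
BNIP3: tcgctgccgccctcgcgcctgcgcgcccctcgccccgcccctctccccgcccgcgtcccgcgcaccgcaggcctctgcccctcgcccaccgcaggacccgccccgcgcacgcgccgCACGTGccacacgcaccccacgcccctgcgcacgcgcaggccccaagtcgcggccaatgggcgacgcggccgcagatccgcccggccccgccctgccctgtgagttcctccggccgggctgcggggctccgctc
P4HA1: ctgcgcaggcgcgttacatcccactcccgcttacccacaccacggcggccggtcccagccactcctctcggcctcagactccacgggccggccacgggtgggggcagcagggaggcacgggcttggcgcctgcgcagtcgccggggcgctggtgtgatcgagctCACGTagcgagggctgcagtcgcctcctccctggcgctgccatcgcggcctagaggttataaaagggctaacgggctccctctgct
FAM162A: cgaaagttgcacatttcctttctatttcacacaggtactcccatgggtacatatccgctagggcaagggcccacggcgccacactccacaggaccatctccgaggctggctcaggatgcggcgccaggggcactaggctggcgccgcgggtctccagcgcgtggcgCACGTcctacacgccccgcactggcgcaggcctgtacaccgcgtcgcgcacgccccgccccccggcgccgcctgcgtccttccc
BHLHE41: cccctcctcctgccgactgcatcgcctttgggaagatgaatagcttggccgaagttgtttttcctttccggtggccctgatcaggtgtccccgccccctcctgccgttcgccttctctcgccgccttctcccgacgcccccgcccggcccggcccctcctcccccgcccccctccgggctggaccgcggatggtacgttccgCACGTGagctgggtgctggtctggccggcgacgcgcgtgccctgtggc
PPFIA4: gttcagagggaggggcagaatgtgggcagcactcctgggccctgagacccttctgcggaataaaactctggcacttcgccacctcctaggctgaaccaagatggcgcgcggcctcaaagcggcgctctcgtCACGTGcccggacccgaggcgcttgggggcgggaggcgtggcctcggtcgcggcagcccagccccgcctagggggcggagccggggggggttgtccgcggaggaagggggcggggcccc
ANGPTL4: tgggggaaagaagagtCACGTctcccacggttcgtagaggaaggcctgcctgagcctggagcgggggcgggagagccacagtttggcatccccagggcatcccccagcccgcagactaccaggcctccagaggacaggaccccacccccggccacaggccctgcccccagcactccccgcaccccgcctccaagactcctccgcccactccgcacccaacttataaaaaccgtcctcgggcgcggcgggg
ADM: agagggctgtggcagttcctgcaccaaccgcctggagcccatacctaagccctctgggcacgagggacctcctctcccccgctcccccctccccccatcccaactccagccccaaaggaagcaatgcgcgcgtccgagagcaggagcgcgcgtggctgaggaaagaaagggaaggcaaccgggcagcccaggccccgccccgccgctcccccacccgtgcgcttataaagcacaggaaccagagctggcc
The first base of the match lay 134 bases before the start in BNIP3, 119 in PPFIA4, 86 in P4HA1, 84 in FAM162A and 48 in BHLHE41, and 234 in ANGPTL4.

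Libraries held 16500939 to 21089708 counts. VHL mRNA stood at 53.2 CPM (counts scaled to a library of 1e+06, with TMM factors) in Luc976 and 38.1 in shVHL61, against 59.5 in shKIM1-A1 and 41.6 in shVHL61-KIM1A1, and HAVCR1 at 121, 143, 57.0 and 83.7 CPM, so each targeted mRNA was lower where its hairpin was present and neither was removed. HAVCR1 was higher in shVHL61-KIM1A1 than in shKIM1-A1 (log2 0.55, edgeR adjusted p = 0.000437). With the KIM-1 hairpin HAVCR1 changed by log2 -1.08 without the VHL hairpin and -0.78 with it (difference 0.31, adjusted p = 0.15). The part of this in the members' levels was not tested. The 12 libraries were put into 2 sets by whether GC-rich genes lay above or below the mean of their own group, 6 in each. Counts within each set are given beside the pooled ones. Since each group is its own reference, a split of every group follows largely from the method. A set need not hold the same GC state in different groups, and no label names it a batch. Set A holds a lone shVHL61 and a lone shKIM1-A1 library, and set B a lone Luc976 and a lone shVHL61-KIM1A1 library. A count within a set therefore assumes that a lone library varies like the groups with 2 there, and it is no replicate check. Of 12 proximal tubule markers, LRP2 and SLC22A6 were at 0 in all 12 libraries, and HNF4A and AQP1 reached at most 2 and 3 counts, while PAX8 and GGT1 were abundant, as were KRT8 and KRT18 among 4 epithelial markers. The summed proximal tubule markers spanned 425 to 474 CPM in shVHL61-KIM1A1 and 459 to 624 CPM in the other groups. The 4 endothelial markers summed to 2.44 to 3.39 CPM in shVHL61-KIM1A1 and 0.0527 to 1.40 CPM elsewhere, with PECAM1, VWF and TEK at no more than 8, 9 and 2 counts in any library. CDH5, the only endothelial marker tested, reached 45 counts. It was higher with both hairpins against Luc976 (log2 1.69), shVHL61 (1.79) and shKIM1-A1 (3.56), and lower in shKIM1-A1 against Luc976 (-1.87). Of 4 immune markers CD3E was at 0 in all 12 libraries and PTPRC reached 1 count, while CD14 and LYZ averaged 6.97 and 1.39 CPM. The immune sum, mostly CD14, spanned 6.20 to 10.5 CPM. The 4 fibroblast markers, almost all LUM, summed to 141 to 156 CPM in shVHL61-KIM1A1 and 101 to 140 CPM elsewhere; of 3 tested against Luc976, 1 was higher and 2 were lower in shVHL61-KIM1A1 (median -1.03). The part of these markers in the members' levels was not tested.

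With the VHL hairpin alone none of these HIF targets was called higher and 5 were called lower, where 7.20% and 9.49% of all genes were. The absence of a call does not show that no member rose. Changes ran from log2 -0.39 (PPFIA4) to 0.33 (INSIG2). With length and GC trends removed 4 members were higher and 6 lower, where 18.2% and 11.5% of all genes were. VHL mRNA stood at 38.1 CPM in shVHL61 and 53.2 in Luc976, and the part of this in the members' levels was not tested. With the KIM-1 hairpin alone 18 rose, where 14.8% of all genes did. With both hairpins 25 rose against Luc976, with folds of up to 2.89, where 25.1% of all genes rose. STC1, the hormone stanniocalcin-1, was too low to test, with 2, 3 and 5 counts in Luc976, 0, 2 and 1 in shVHL61, 0 in each shKIM1-A1 sample and 0, 2 and 0 in shVHL61-KIM1A1, so counts are of 33 members. A gene passed at a Benjamini-Hochberg adjusted p below 0.05 in edgeR's quasi-likelihood test, adjusted over 14230 genes.

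In shVHL61 against Luc976, 0 of 33 members rose and 5 fell, against 7.20% and 9.49% of all genes tested, with a median log2 fold change of -0.04 (-0.01 over all genes). DESeq2 also called 0 higher, and at an unadjusted p below 0.05 in edgeR 1 were higher and 7 lower. Within the library sets, each with a lone library in this comparison, 0 rose and 4 fell in set A, and 2 rose and 3 fell in set B. In shKIM1-A1 against Luc976, 18 members rose and 2 fell, against 14.8% and 16.5% of all genes, with a median of 0.37. The sets, again with a lone library each, gave 18 higher and 2 lower in A, and 16 and 2 in B. In shVHL61-KIM1A1 against shVHL61, which differ by the KIM-1 hairpin, 28 rose and 2 fell, against 21.3% in each direction, with a median of 0.63 (27 and 3 in set A, 28 and 3 in set B). In shVHL61-KIM1A1 against shKIM1-A1, 21 rose and 2 fell (21.1% and 20.9% of all genes), with a median of 0.37 and 21 higher in each set. In shVHL61-KIM1A1 against Luc976, 25 rose and 3 fell (25.1% and 26.2%), with a median of 0.67 and 26 and 24 higher in the sets. Comparisons with a shared group are not independent of each other.

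Another scaling changed some of these counts. With limma on log2(TPM + 1), 12 members were higher and 4 lower in shVHL61-KIM1A1 against shKIM1-A1, where the median of all genes moved to -0.15 and 20.0% of all calls were higher in place of 50.2%. The share of calls over all genes that were higher was 28.0% in place of 43.1% in shVHL61 against Luc976, 68.7% in place of 47.3% in shKIM1-A1 against Luc976, and 36.7% in place of 48.9% with both hairpins against Luc976. With length and GC trends removed 4 members were higher in shVHL61 against Luc976, where 18.2% of all genes were. Of all calls in that setting, 61.3% were higher. Leaving out Luc976 replicate 2 or shVHL61 replicate 1 gave 1 member higher in that comparison, and leaving out shVHL61 replicate 2 left 3 lower.

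**Figure D1:**
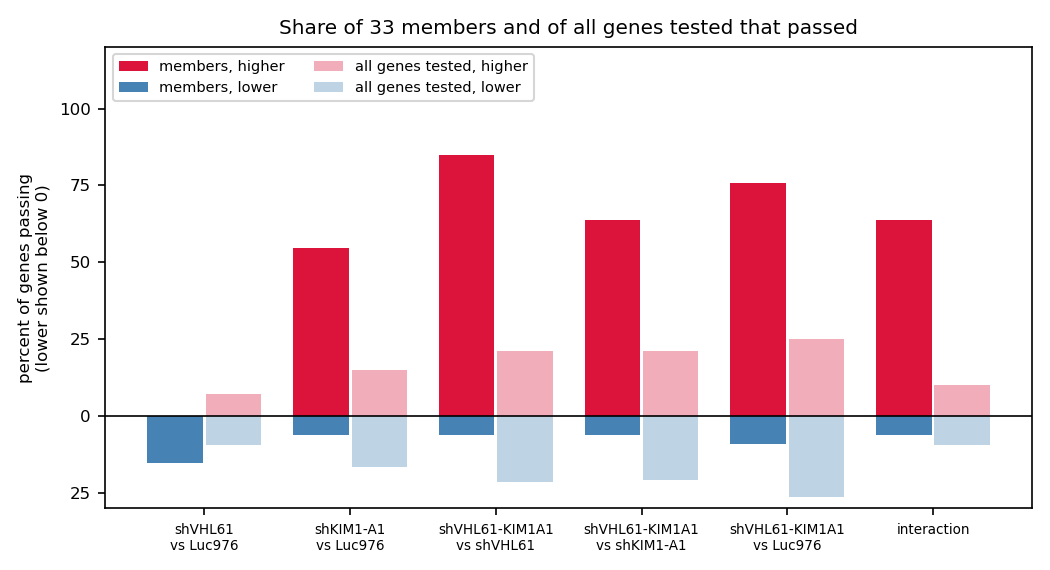
Bars give the percent of the 33 tested members (full colour) and of all 14230 genes tested (pale) that passed in each comparison, higher above 0 and lower below it; interaction is the difference between the KIM-1 hairpin's effects with and without the VHL hairpin. The members' share higher was 0 in shVHL61 against Luc976 and 84.8% in shVHL61-KIM1A1 against shVHL61.

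In CPM, all 3 shVHL61-KIM1A1 samples lay above all 9 others in 21 of 33 members, as in 12.9% of all genes, and below all 9 in ANGPTL4 alone, as in 12.7% of all genes. In 13 members the shVHL61-KIM1A1 samples lay above the shKIM1-A1 samples and these above all samples of both other groups, a stepwise order found in 1.95% of all genes: P4HA1, BNIP3, BNIP3L, PDK1, FAM162A, BHLHE41, MXI1, RORA, NDRG1, INSIG2, HILPDA, PPFIA4 and ANKZF1. Both orders depend on the scale. In TPM, samples of shVHL61-KIM1A1 and shKIM1-A1 overlapped for P4HA1, BHLHE41 and MXI1, and among the 21 also for PLOD1, PLOD2, LOX and KDM3A. With the KIM-1 hairpin 17 members were higher both without and with the VHL hairpin, against 7.08% of all genes. Rises of at least 2-fold in shVHL61-KIM1A1 against Luc976 were called for 12 members, against 2.98% of all genes, and for 9 against shVHL61 (2.67%). Summed over the 34 members, TPM (the authors' values per transcript length, scaled to 1e+06) stood at 2394 ± 20.3 in Luc976 and 2274 ± 32.2 in shVHL61, against 3055 ± 20.1 in shKIM1-A1 and 3425 ± 69.2 in shVHL61-KIM1A1 (SD, n = 3 each). On this scale, which is per length, the tested members of Luc976 cells ranged from 0.0733 (RORA) to 466 (DDIT4), followed by LOXL2 at 383 and BNIP3 at 217. In bulk RNA, fewer cells with a transcript and less of it per cell cannot be told apart.

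**Figure D2:**
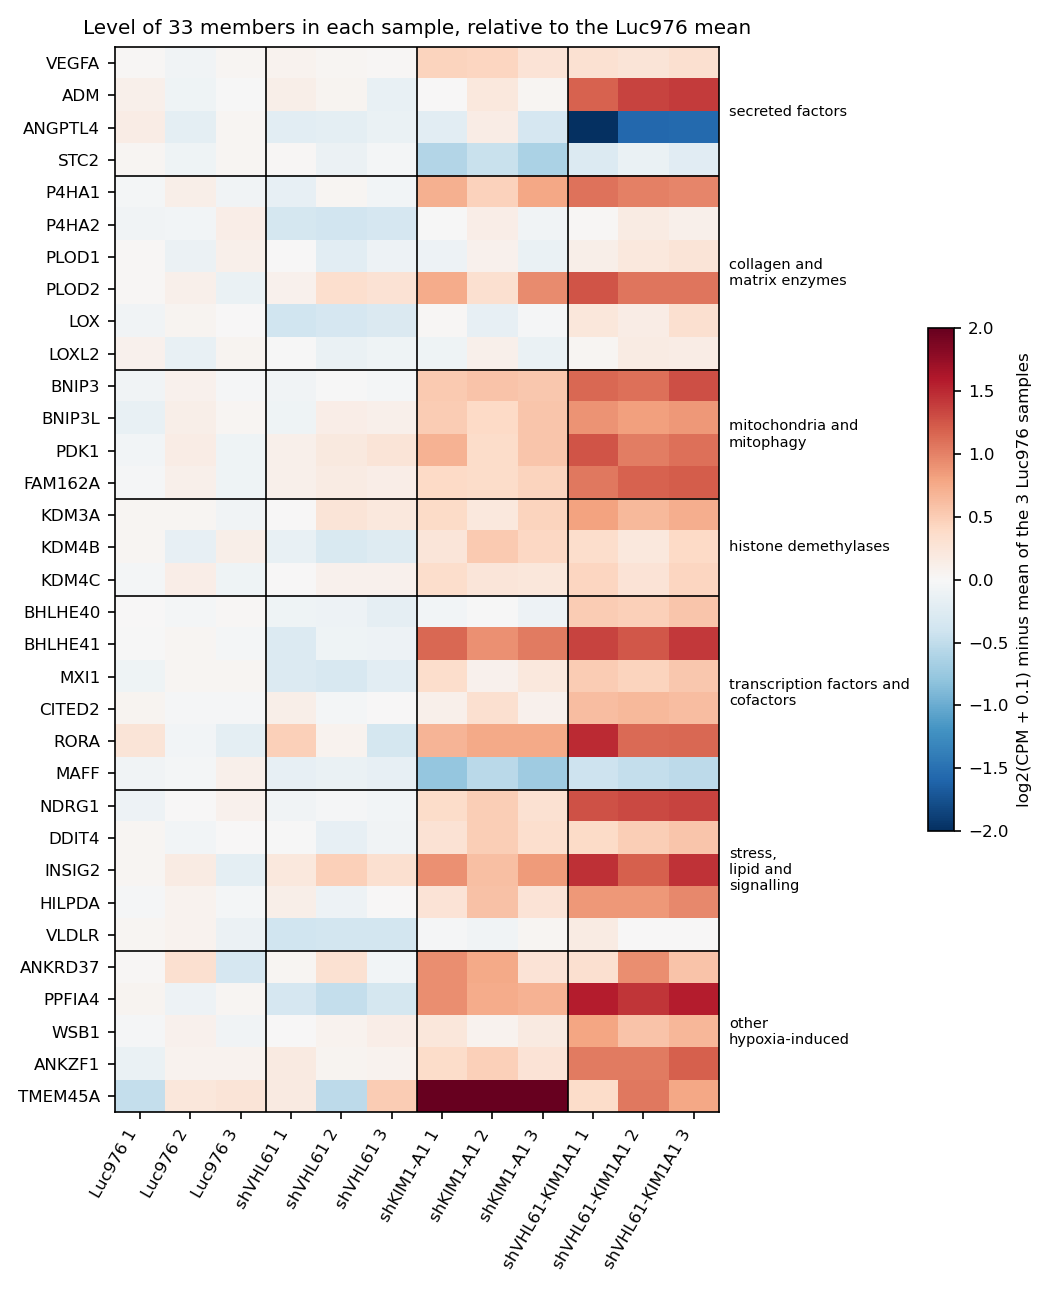
Each row is one of 33 members, ordered by role, and each column one sample; colour is log2(CPM + 0.1) minus the mean of the 3 Luc976 samples, with the scale ending at -2 and 2. Columns of shVHL61-KIM1A1 are red in most rows, ANGPTL4 is blue there, and TMEM45A is darkest in shKIM1-A1.

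Among the secreted factors, ADM, the vasodilator peptide adrenomedullin, rose with both hairpins and passed the test with neither alone. ADM levels were 28.1, 24.8 and 26.0 CPM in Luc976 and 28.4, 27.3 and 23.7 in shVHL61, against 26.3, 30.3 and 27.0 in shKIM1-A1 and 59.9, 67.4 and 69.5 in shVHL61-KIM1A1. Samples of the first 3 groups overlapped, and all shVHL61-KIM1A1 samples lay above them. ADM was 2.50-fold of Luc976 with both hairpins (log2 1.32, SE 0.09, adjusted p = 4.79e-09), while shVHL61 and shKIM1-A1 gave 0.01 and 0.08, neither past the test.

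ANGPTL4, a secreted inhibitor of lipoprotein lipase, went the other way. Its levels were 18.1, 14.3 and 16.8 CPM in Luc976 and 14.1, 14.3 and 14.9 in shVHL61, against 14.2, 18.0 and 12.9 in shKIM1-A1 and 3.96, 5.42 and 5.52 in shVHL61-KIM1A1. The shVHL61-KIM1A1 samples were the lowest of all 12, with no overlap. Relative to Luc976 ANGPTL4 fell by 1.72 on the log2 scale (SE 0.15, adjusted p = 8.33e-08), 3.30-fold lower, and it did not pass in shVHL61 (-0.18) or shKIM1-A1 (-0.13).

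VEGFA, the main angiogenic growth factor, ranged from 211 to 301 CPM over the 12 samples. It rose in shKIM1-A1 (log2 0.38, adjusted p = 8.45e-05) and in shVHL61-KIM1A1 against Luc976 (0.30, adjusted p = 0.000322). Between the groups with the KIM-1 hairpin VEGFA differed by -0.08, with a 95% interval of -0.20 to 0.03. STC2, a secreted glycoprotein hormone related to STC1, ranged from 54.2 to 86.3 CPM. It fell in shKIM1-A1 (log2 -0.55, SE 0.07, adjusted p = 1.75e-05) and, by less, in shVHL61-KIM1A1 against Luc976 (-0.21, adjusted p = 0.0147). The smaller STC2 call was lost without Luc976 replicate 1 (-0.18), Luc976 replicate 3 (-0.19) or shVHL61-KIM1A1 replicate 1 (-0.19), and stood at -0.10 with the length trend removed.

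All 6 collagen and matrix enzymes rose in shVHL61-KIM1A1 against shVHL61, where 21.3% of all genes did. None of the 6 was called lower in any group with the KIM-1 hairpin. P4HA1 is a catalytic subunit of the prolyl hydroxylase that stabilises the collagen triple helix. P4HA1 levels were 115, 128 and 113 CPM in Luc976 and 106, 121 and 114 in shVHL61, against 194, 163 and 204 in shKIM1-A1 and 253, 237 and 233 in shVHL61-KIM1A1. In CPM the groups stood in steps, with no overlap between shKIM1-A1, shVHL61-KIM1A1 and the rest. In TPM a shKIM1-A1 sample reached 154 and a shVHL61-KIM1A1 sample stood at 148, so these groups overlapped. The P4HA1 rise in shVHL61-KIM1A1 against shKIM1-A1 was lost with limma on log2(TPM + 1). P4HA1 rose to 1.57-fold of Luc976 in shKIM1-A1 (log2 0.66, SE 0.08, adjusted p = 1.43e-05) and 2.03-fold with both hairpins (1.02, SE 0.08, adjusted p = 3.35e-08).

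PLOD2, a lysyl hydroxylase that prepares collagen cross-links, was measured at 76.9, 81.7 and 69.2 CPM in Luc976 and 80.4, 95.5 and 92.4 in shVHL61, against 127, 94.8 and 145 in shKIM1-A1 and 182, 159 and 158 in shVHL61-KIM1A1. Its shKIM1-A1 samples were spread widely, and 1 of them lay within the range of shVHL61. PLOD2 rose in shKIM1-A1 (log2 0.69, SE 0.12, adjusted p = 0.000358) and with both hairpins (1.13, SE 0.12, adjusted p = 8.95e-07).

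P4HA2, another catalytic subunit of that hydroxylase, gave 147, 149 and 169 CPM in Luc976 and 122, 119 and 123 in shVHL61, against 154, 170.4 and 148 in shKIM1-A1 and 157, 173 and 166 in shVHL61-KIM1A1. Only the shVHL61 samples stood apart, below the other 9. P4HA2 fell in shVHL61 against Luc976 (log2 -0.36, SE 0.07, adjusted p = 0.00167) and was higher by 0.45 in shVHL61-KIM1A1 against shVHL61 (adjusted p = 6.11e-05); against Luc976 shVHL61-KIM1A1 gave 0.10, with an interval of -0.05 to 0.24.

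LOX, the lysyl oxidase that cross-links collagen and elastin, showed 17.1, 18.5 and 18.1 CPM in Luc976 and 13.6, 14.1 and 14.7 in shVHL61, against 18.3, 16.0 and 17.7 in shKIM1-A1 and 21.0, 19.9 and 22.3 in shVHL61-KIM1A1. In CPM the shVHL61 samples were the lowest and the shVHL61-KIM1A1 samples the highest, without overlap. LOX fell in shVHL61 (-0.34, SE 0.08, adjusted p = 0.0102) and rose by 0.58 in shVHL61-KIM1A1 against it (SE 0.08, adjusted p = 4.15e-05). Against Luc976 the rise of 0.24 (adjusted p = 0.0225) was lost without Luc976 replicate 1 (0.21) or shVHL61-KIM1A1 replicate 3 (0.19), and the rise against shKIM1-A1 (0.29) without shVHL61-KIM1A1 replicate 3 (0.24).

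PLOD1, another lysyl hydroxylase, ranged from 257 to 358 CPM and rose by 0.30 in shVHL61-KIM1A1 against shVHL61 (adjusted p = 0.00392). Its rise of 0.20 against Luc976 (adjusted p = 0.0344) was lost in 6 of 17 alternatives, among them without Luc976 replicate 1 (0.21) or 2 (0.16) and without shVHL61-KIM1A1 replicate 2 (0.19) or 3 (0.17). LOXL2, a lysyl oxidase relative, was abundant, at 668 to 831 CPM. It rose by 0.20 in shVHL61-KIM1A1 against shVHL61 (adjusted p = 0.0329), a call lost without shVHL61 replicate 2 (0.17) or 3 (0.19) or shVHL61-KIM1A1 replicate 2 (0.18) or 3 (0.18).

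**Figure D3:**
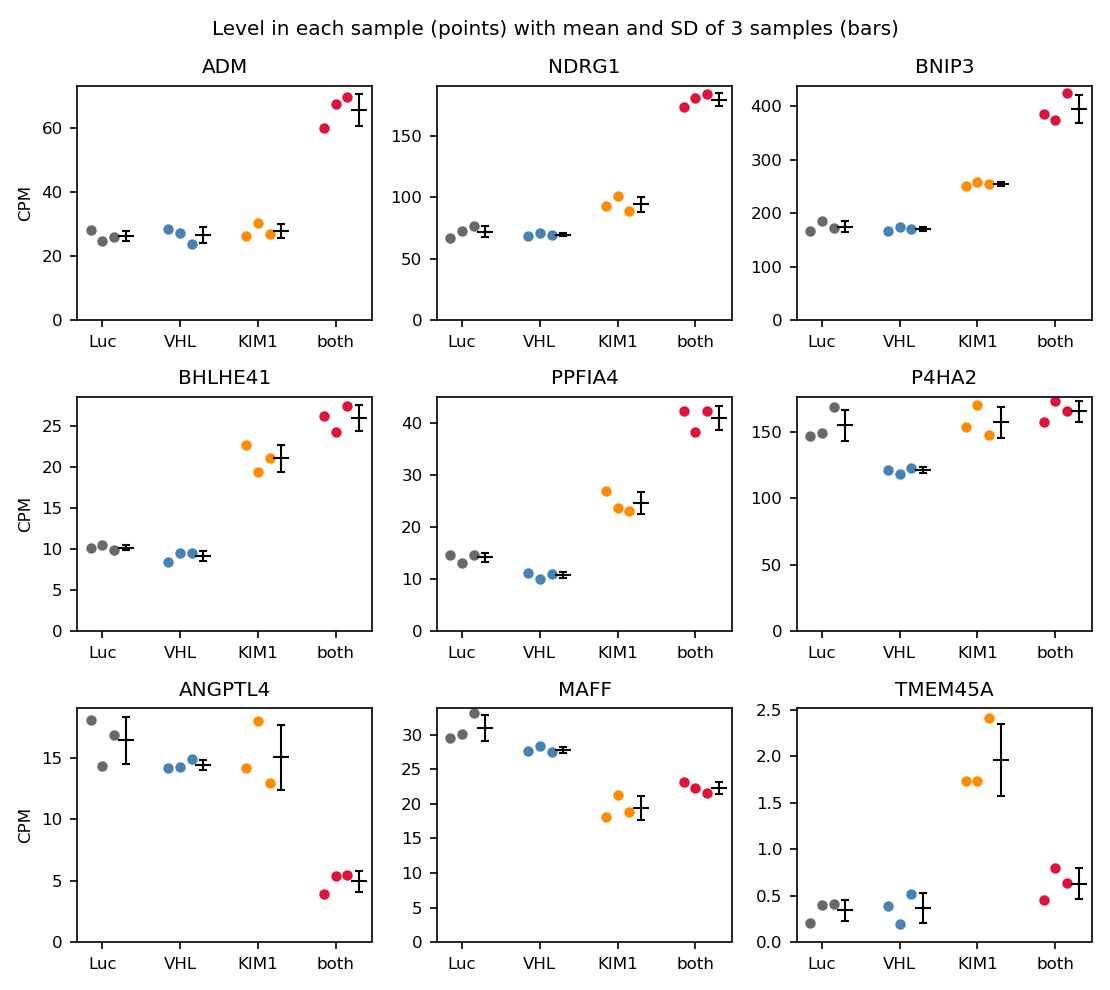
Points are CPM in each of 3 samples per group (Luc, Luc976; VHL, shVHL61; KIM1, shKIM1-A1; both, shVHL61-KIM1A1) and bars the mean and SD, on axes that start at 0. ADM is high with both hairpins, BNIP3 and PPFIA4 rise in steps, P4HA2 dips in shVHL61, ANGPTL4 is low with both, and TMEM45A is high in shKIM1-A1 at under 3 CPM.

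The 4 mitochondrial and mitophagy genes rose in each comparison that added the KIM-1 hairpin and also in shVHL61-KIM1A1 against shKIM1-A1. Of all genes, 14.8% rose in shKIM1-A1 against Luc976, 21.3% in shVHL61-KIM1A1 against shVHL61 and 21.1% against shKIM1-A1. BNIP3, an outer-membrane receptor that recruits autophagosomes to mitochondria, gave 166, 186 and 172 CPM in Luc976 and 166, 174 and 170.4 in shVHL61, against 251, 258 and 254 in shKIM1-A1 and 385, 375 and 424 in shVHL61-KIM1A1. Luc976 and shVHL61 overlapped, shKIM1-A1 lay above both and shVHL61-KIM1A1 above all. BNIP3 rose to 1.46-fold in shKIM1-A1 (log2 0.54, SE 0.06, adjusted p = 4.54e-06) and 2.26-fold with both hairpins (1.18, SE 0.06, adjusted p = 1.63e-10). GENCODE 29 lists 39 pseudogenes named after BNIP3, and how the authors' counting split reads shared with them is not given in the sources used here.

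FAM162A, a mitochondrial protein linked to hypoxic cell death, stood at 46.2, 50.6 and 44.5 CPM in Luc976 and 50.3, 52.8 and 51.5 in shVHL61, against 62.3, 60.9 and 64.1 in shKIM1-A1 and 97.7, 106 and 109 in shVHL61-KIM1A1. The same stepwise order held, with shVHL61 overlapping Luc976. Rises were 0.41 in shKIM1-A1 (SE 0.07, adjusted p = 0.000216) and 1.15 with both hairpins (SE 0.07, adjusted p = 8.57e-10) on the log2 scale. BNIP3L, the close relative of BNIP3 known as NIX, ranged from 52.5 to 108 CPM and rose by 0.48 in shKIM1-A1 and 0.85 with both hairpins (adjusted p = 0.000179 and 1.65e-07). The BNIP3L rise in shVHL61-KIM1A1 against shKIM1-A1 was lost with limma on log2(TPM + 1). PDK1, the kinase that shuts pyruvate dehydrogenase, ranged from 29.6 to 76.0 CPM and rose by 0.54 and 1.13 (adjusted p = 0.000335 and 4.59e-08).

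The 3 histone demethylases, oxygen-dependent enzymes that remove methyl groups from lysines of histone tails, all rose in shKIM1-A1 and with both hairpins (14.8% and 25.1% of all genes did). KDM3A levels were 62.0, 62.0 and 57.6 CPM in Luc976 and 60.7, 72.4 and 70.2 in shVHL61, against 79.1, 70.3 and 82.3 in shKIM1-A1 and 105, 94.4 and 101 in shVHL61-KIM1A1. In CPM the shVHL61-KIM1A1 samples lay above all others, while the other groups overlapped in part. KDM3A rose by 0.35 in shKIM1-A1 (SE 0.08, adjusted p = 0.00271) and 0.73 with both (SE 0.08, adjusted p = 1.13e-06).

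KDM4B read 24.9, 21.8 and 26.5 CPM in Luc976 and 22.0, 19.7 and 20.4 in shVHL61, against 29.0, 34.9 and 32.5 in shKIM1-A1 and 31.0, 28.3 and 32.2 in shVHL61-KIM1A1. Both groups with the KIM-1 hairpin lay above both without it, and they overlapped each other. The rises were 0.40 in shKIM1-A1 (adjusted p = 0.00344) and 0.32 with both hairpins (adjusted p = 0.00755). Between both groups with the KIM-1 hairpin the difference was -0.07, with an interval of -0.26 to 0.12. KDM4C, at 11.8 to 16.9 CPM, rose by 0.37 with both hairpins (adjusted p = 0.0022). Its rise of 0.27 in shKIM1-A1 (adjusted p = 0.0286) was lost without Luc976 replicate 1 (0.25) or 3 (0.23) or shKIM1-A1 replicate 1 (0.24), and within each library set (0.32 in A, 0.15 in B).

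Of the 6 transcription factors and cofactors, 5 rose and 1, MAFF, fell with both hairpins against Luc976 (25.1% and 26.2% of all genes did). BHLHE41, a basic helix-loop-helix repressor also known as DEC2, was measured at 10.2, 10.5 and 9.93 CPM in Luc976 and 8.46, 9.58 and 9.52 in shVHL61, against 22.7, 19.3 and 21.1 in shKIM1-A1 and 26.2, 24.3 and 27.4 in shVHL61-KIM1A1. Both groups with the KIM-1 hairpin stood above the others, and in CPM shVHL61-KIM1A1 stood above shKIM1-A1. In TPM these groups overlapped, and the rise against shKIM1-A1 was lost with limma on log2(TPM + 1). BHLHE41 rose to 2.06-fold of Luc976 in shKIM1-A1 (log2 1.04, SE 0.09, adjusted p = 4.33e-07) and 2.55-fold with both (1.35, SE 0.09, adjusted p = 5.18e-09).

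Its relative BHLHE40 (DEC1) stood at 114, 110.2 and 114 CPM in Luc976 and 106, 105 and 99.99 in shVHL61, against 109, 113 and 105 in shKIM1-A1 and 159.7, 158 and 166 in shVHL61-KIM1A1. The first 3 groups lay together and shVHL61-KIM1A1 above them. BHLHE40 rose with both hairpins by 0.51 against Luc976 (SE 0.05, adjusted p = 8.06e-07), while shKIM1-A1 gave -0.05, with an interval of -0.17 to 0.06.

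MXI1, an antagonist of MYC, read 16.5, 18.0 and 18.1 CPM in Luc976 and 14.5, 13.9 and 15.1 in shVHL61, against 22.4, 18.5 and 20.4 in shKIM1-A1 and 24.9, 23.9 and 25.6 in shVHL61-KIM1A1. In CPM the shVHL61 samples were the lowest and the shVHL61-KIM1A1 samples the highest, while in TPM shVHL61-KIM1A1 overlapped shKIM1-A1. MXI1 rose with both hairpins against Luc976 (0.50, SE 0.08, adjusted p = 0.000112). The log2 change of -0.27 in shVHL61 (adjusted p = 0.0415) was lost in 13 of 17 alternatives, including each of the 6 that left out a sample, with values from -0.31 to -0.23.

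RORA, a nuclear receptor, was rare, at 0.526, 0.405 and 0.357 CPM in Luc976 and 0.632, 0.451 and 0.310 in shVHL61, against 0.737, 0.791 and 0.787 in shKIM1-A1 and 1.38, 1.05 and 1.06 in shVHL61-KIM1A1. The shVHL61-KIM1A1 samples were the 3 highest. RORA rose with both hairpins against Luc976 (1.42, SE 0.30, adjusted p = 0.00088), and in shKIM1-A1 gave 0.83 (adjusted p = 0.0573). CITED2, which competes with HIF for the coactivators CREBBP and EP300, ranged from 115 to 185 CPM and rose by 0.63 with both hairpins (adjusted p = 9.69e-07). MAFF, a small Maf protein, ranged from 18.1 to 33.1 CPM, with both groups that carry the KIM-1 hairpin below the others. It fell by 0.67 in shKIM1-A1 and by 0.47 with both hairpins against Luc976 (adjusted p = 9.9e-06 and 0.000106).

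NDRG1, a stress-responsive protein induced in many hypoxic tissues, had the smallest p of all members with both hairpins against Luc976. NDRG1 levels were 67.3, 72.2 and 76.2 CPM in Luc976 and 68.5, 71.0 and 69.3 in shVHL61, against 93.1, 101 and 89.0 in shKIM1-A1 and 173, 180.3 and 184 in shVHL61-KIM1A1. Luc976 and shVHL61 overlapped, shKIM1-A1 lay above them, and shVHL61-KIM1A1 was highest. NDRG1 rose to 1.31-fold in shKIM1-A1 (log2 0.39, SE 0.06, adjusted p = 0.000209) and 2.49-fold with both (1.32, SE 0.06, adjusted p = 9.81e-11).

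INSIG2, which holds the sterol sensor complex in the endoplasmic reticulum, gave 10.7, 11.7 and 9.10 CPM in Luc976 and 12.1, 14.6 and 13.0 in shVHL61, against 19.8, 15.9 and 19.0 in shKIM1-A1 and 29.0, 23.9 and 28.5 in shVHL61-KIM1A1. The groups stood in ascending order from Luc976 to shVHL61-KIM1A1, each without overlap. INSIG2 rose in shKIM1-A1 (0.79, SE 0.12, adjusted p = 0.000101) and with both (1.37, SE 0.12, adjusted p = 7.62e-08), while shVHL61 gave 0.33 (adjusted p = 0.0738).

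HILPDA, a lipid droplet protein that restrains triglyceride breakdown, showed 23.5, 25.1 and 23.3 CPM in Luc976 and 26.0, 22.4 and 24.0 in shVHL61, against 29.0, 36.1 and 28.8 in shKIM1-A1 and 43.7, 43.7 and 46.7 in shVHL61-KIM1A1. The shVHL61-KIM1A1 samples lay above all others and the shKIM1-A1 samples above both groups without that hairpin. HILPDA rose by 0.38 in shKIM1-A1 (adjusted p = 0.00414, with 0.21 and no call within set B) and 0.90 with both (adjusted p = 5.23e-07).

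VLDLR, a receptor of lipoproteins, read 31.9, 32.7 and 28.8 CPM in Luc976 and 23.5, 24.1 and 24.1 in shVHL61, against 30.6, 29.6 and 31.9 in shKIM1-A1 and 34.9, 31.3 and 31.3 in shVHL61-KIM1A1. Only shVHL61 stood apart, below the other 9 samples. VLDLR fell there by 0.38 against Luc976 (SE 0.08, adjusted p = 0.00213) and was 0.44 higher in shVHL61-KIM1A1 against shVHL61 (adjusted p = 0.000195). DDIT4, an inhibitor of the growth kinase complex mTORC1, was the most abundant member per length and ranged from 359 to 593 CPM. It rose by 0.37 in shKIM1-A1 and 0.48 with both hairpins (adjusted p = 0.000361 and 1.16e-05).

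Of the other hypoxia-induced genes, PPFIA4, a scaffold of the liprin family, had the largest fold of the members in shVHL61-KIM1A1 against shVHL61. PPFIA4 levels were 14.7, 13.2 and 14.6 CPM in Luc976 and 11.2, 10.1 and 11.1 in shVHL61, against 27.0, 23.7 and 23.1 in shKIM1-A1 and 42.4, 38.2 and 42.3 in shVHL61-KIM1A1. All 4 groups were separate, in the order shVHL61, Luc976, shKIM1-A1 and shVHL61-KIM1A1. PPFIA4 rose to 3.79-fold of shVHL61 with both hairpins (log2 1.92, SE 0.09, adjusted p = 3.79e-10) and by 0.79 in shKIM1-A1 (adjusted p = 5.21e-06). The log2 change of -0.39 in shVHL61 (adjusted p = 0.00894) was lost without shVHL61 replicate 2 (-0.35).

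ANKZF1, a factor that rescues stalled ribosomes, stood at 44.3, 50.9 and 50.8 CPM in Luc976 and 55.3, 50.3 and 51.3 in shVHL61, against 62.7, 68.0 and 58.5 in shKIM1-A1 and 100.02, 100.4 and 112 in shVHL61-KIM1A1. Stepwise order held here too. The rises were 0.37 in shKIM1-A1 (SE 0.08, adjusted p = 0.00168) and 1.10 with both (SE 0.08, adjusted p = 9.15e-09).

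TMEM45A, a transmembrane protein, was rare, at 0.210, 0.405 and 0.416 CPM in Luc976 and 0.389, 0.201 and 0.517 in shVHL61, against 1.74, 1.74 and 2.41 in shKIM1-A1 and 0.459, 0.800 and 0.637 in shVHL61-KIM1A1. The shKIM1-A1 samples were the highest, and the other groups overlapped. TMEM45A rose in shKIM1-A1 against Luc976 (log2 2.50, SE 0.33, adjusted p = 3.01e-05) and was lower in shVHL61-KIM1A1 against shKIM1-A1, at -1.63 (adjusted p = 0.000307). WSB1, a substrate adaptor of ubiquitin ligases, ranged from 57.0 to 103 CPM and rose by 0.67 with both hairpins (adjusted p = 1.02e-06). ANKRD37, an ankyrin repeat protein, ranged from 0.833 to 2.16 CPM and passed in no comparison; shVHL61-KIM1A1 against Luc976 gave 0.62 (adjusted p = 0.0559).

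**Figure D4:**
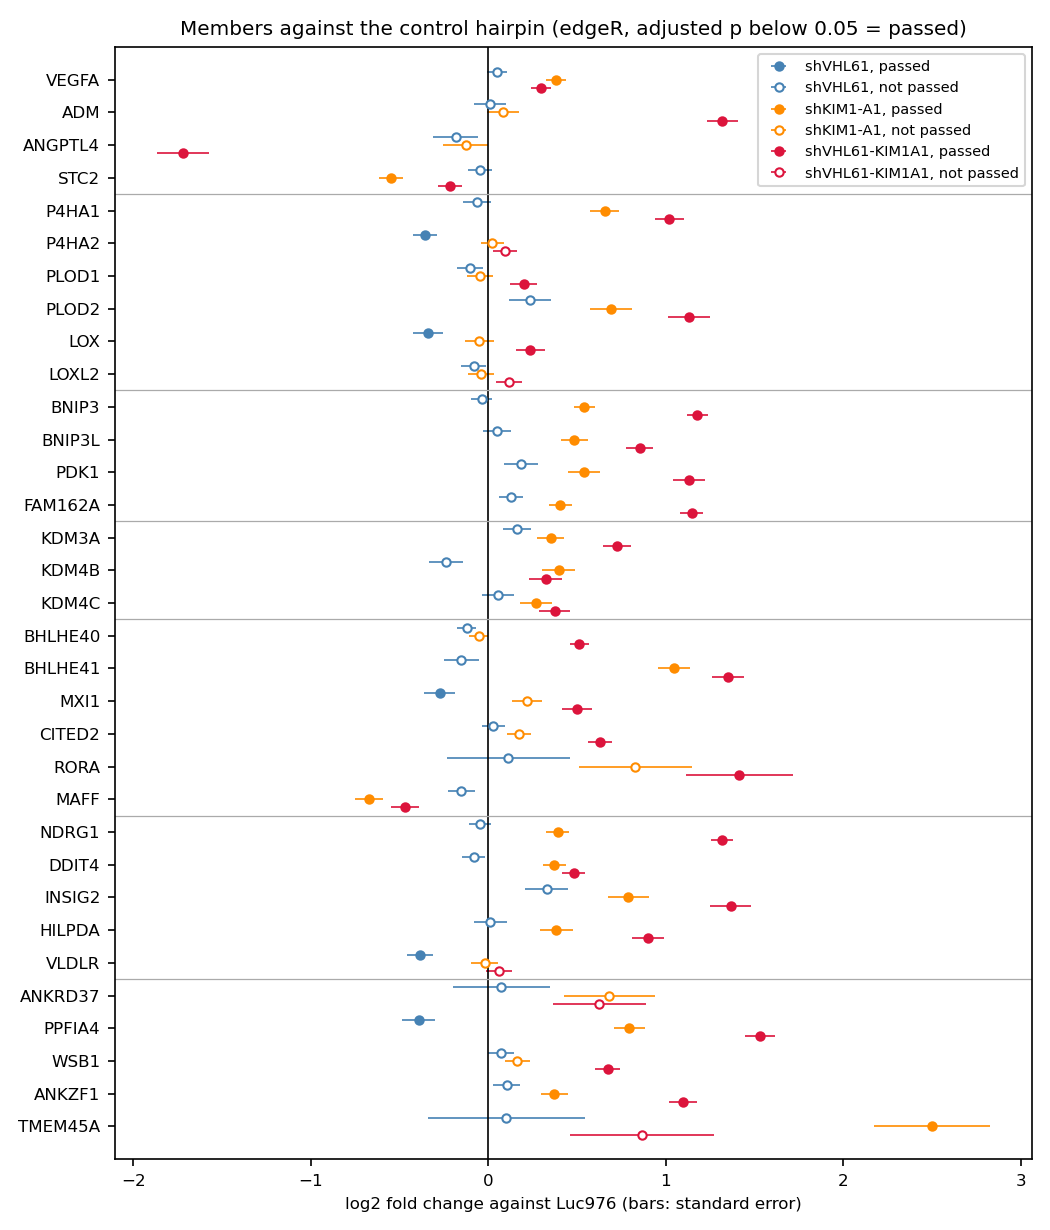
Log2 fold changes against Luc976 are shown with standard errors for shVHL61 (blue), shKIM1-A1 (orange) and shVHL61-KIM1A1 (red); filled points passed at an adjusted p below 0.05. Red points lie to the right for most members, blue points lie near or left of 0, and TMEM45A in shKIM1-A1 stands farthest right.

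The 5 members that fell with the VHL hairpin alone, P4HA2, LOX, MXI1, VLDLR and PPFIA4, were among the 28 that rose in shVHL61-KIM1A1 against shVHL61, a comparison with the same low shVHL61 samples, so their rise is a description. Whether the change seen with the KIM-1 hairpin differed with and without the VHL hairpin was tested by the difference of its 2 effects. The same shVHL61 samples enter that difference, and a low level in them makes it more positive. That difference was positive for 21 members and negative for 2, ANGPTL4 and TMEM45A, against 10.2% and 9.49% of all genes, with a median of 0.43 (0.00 over all genes). The sets, where 2 of the 4 groups are lone libraries, gave 19 and 20 positive and 1 negative each, and limma on log2(TPM + 1), where the median of all genes was -0.13 and 24.5% of calls were higher in place of 51.8%, gave 11 positive. The negative value of TMEM45A was lost without Luc976 replicate 1, shKIM1-A1 replicate 3, shVHL61 replicate 1 or 3, or shVHL61-KIM1A1 replicate 1 or 3 (-1.75 to -1.43). A called difference reached 0.5 in size for 12 members, against 10.5% of all genes. The largest positive values were those of ADM (1.22, SE 0.12, adjusted p = 4.58e-06), PPFIA4 (1.13, SE 0.12) and NDRG1 (0.97, SE 0.09). BHLHE40, BNIP3, LOX, ANKZF1, FAM162A, MXI1 and HILPDA followed, with 0.69, 0.67, 0.63, 0.62, 0.61, 0.55 and 0.50. For STC2 and MAFF a positive difference means a smaller fall with the VHL hairpin present than without it. Intervals of members that did not pass included -0.30 to 0.03 for VEGFA, -0.15 to 0.56 for PLOD2 and -0.22 to 0.31 for KDM4C.

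**Figure D5:**
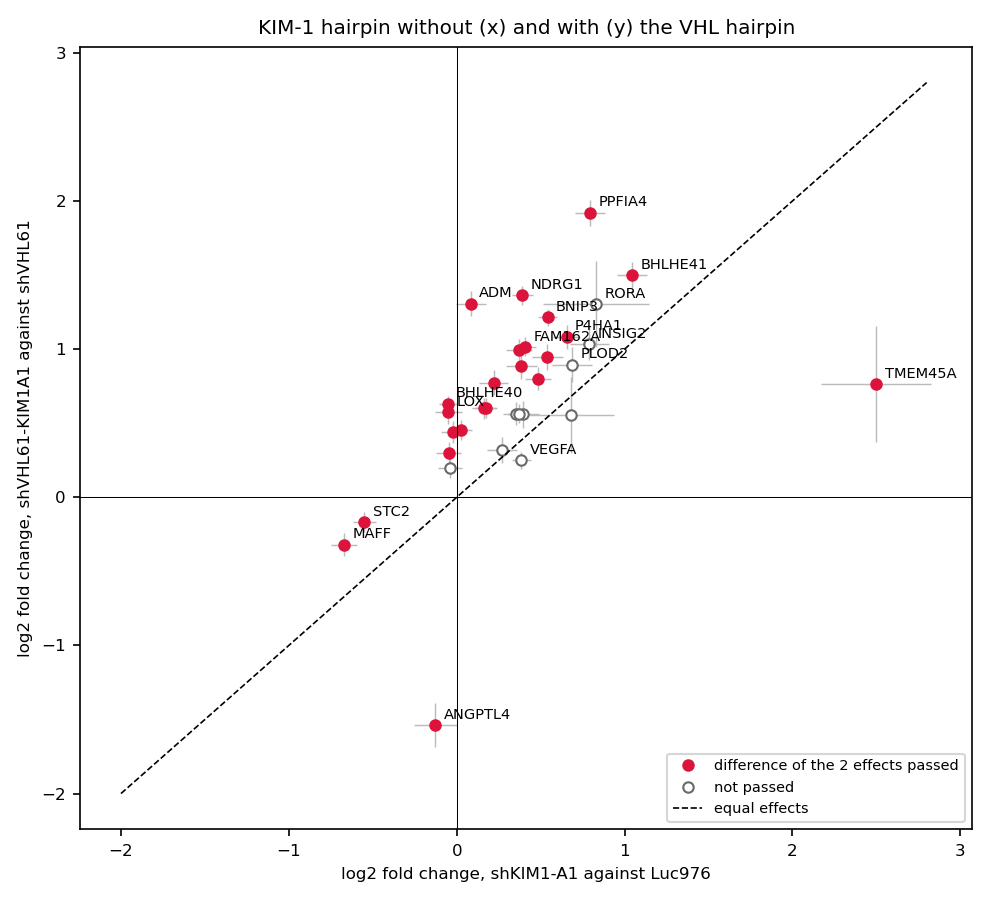
Each point is a member; the horizontal axis is the log2 fold change of shKIM1-A1 against Luc976 and the vertical axis that of shVHL61-KIM1A1 against shVHL61, with standard errors. Filled points passed the test of the difference, and most lie above the dashed line of equal effects; ANGPTL4 and TMEM45A lie below it.

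Carbonic anhydrase 9 (CA9) is a HIF target that is no member. CA9 was at 6.08 CPM in Luc976 and 2.07 in shVHL61, against 4.26 in shKIM1-A1 and 12.5 in shVHL61-KIM1A1. It fell in shVHL61 (log2 -1.55, SE 0.15, adjusted p = 3.5e-06) and in shKIM1-A1 (-0.51, adjusted p = 0.0095), and rose with both hairpins against Luc976 (1.04, SE 0.12, adjusted p = 2.9e-06).

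Of 15 tested genes that regulate HIF, 7 rose and 6 fell with both hairpins against Luc976 (25.1% and 26.2% of all genes did), 5 fell in shKIM1-A1 (16.5% of all genes), and 1 rose and 3 fell in shVHL61 (7.20% and 9.49%). The 15 include VHL, itself the target of a hairpin. VHL is among the genes that fell in shVHL61 and with both hairpins, a fall that the design set. EGLN3, a prolyl hydroxylase and itself a HIF target, had the smallest p among them, with 36.7 CPM against 19.9 in Luc976 (log2 0.88, SE 0.07, adjusted p = 5.79e-08), though it fell in shKIM1-A1 (-0.38, adjusted p = 0.00137). The coactivators CREBBP and EP300 fell with both hairpins, by 0.82 and 0.58, and in shKIM1-A1, by 0.27 and 0.26. EPAS1, the HIF-2 alpha subunit, rose in shVHL61 by 0.22 and fell in shKIM1-A1 by 0.32 (adjusted p = 0.00786 and 0.000282). ARNT2, a relative of ARNT, fell from 4.56 CPM to 1.44 in shVHL61 and 1.60 with both hairpins. EGLN2, another prolyl hydroxylase, fell by 0.29 in shVHL61 and 0.56 with both hairpins. RBX1, a subunit of the VHL ligase, fell by 0.19 in shKIM1-A1 and rose by 0.26 in shVHL61-KIM1A1 against shVHL61.

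In the authors' deposited table a value headed PPEE below 0.05 marked 20 members higher and 3 lower with both hairpins over Luc976, where 11.9% and 13.6% of genes with a value were so marked. The authors' deposited table marked 0 higher and 2 lower for the VHL hairpin (4.52% and 3.78% of genes) and 15 higher and 2 lower for the KIM-1 hairpin (4.92% and 8.14%).

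By GENCODE 29, exons of another gene overlap those of 15 members, on the opposite strand in 13 and on the same strand in 2. The strand setting of the libraries is not stated, so whether reads in the shared bases were told apart is not known. The longest exon overlap differed widely, with 3 bases for FAM162A, 4 for BHLHE40 and 566 for DDIT4. Among the members named above, such overlap touches VEGFA, P4HA1, P4HA2, LOXL2, BNIP3L, PDK1, FAM162A, KDM4C, BHLHE40, MXI1, RORA, DDIT4, HILPDA, VLDLR and ANKZF1.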

How the data were processed

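RNA of 12 HK-2 samples (4 hairpin groups of 3) was extracted with Trizol and made into TruSeq libraries, per the labels' protocols. The authors deposited expected counts, TPM and FPKM values (the last not used) and a table of their own comparisons (fold ratios and a column headed PPEE, by its usual meaning a posterior probability of equal expression and not a p-value). Bowtie 0.12.2 and the mouse builds mm8 and mm9 appear in the submitters' processing notes, with no role given, so the build of the values is not given in the sources used here and the only coordinates printed are those of RefSeq promoters. Of the deposited expected counts, 89.7% to 90.7% were whole; all were rounded. edgeR 4.0.16 (R 4.3.3) fitted all 12 samples (TMM scaling, filterByExpr with a minimum count of 10, robust quasi-likelihood test), and p-values were adjusted by Benjamini-Hochberg over 14230 genes. The 5 pairwise contrasts and the difference of the KIM-1 hairpin's effects with and without the VHL hairpin were tested; SE is the log2 fold change over the square root of F. Alternatives were DESeq2 1.42.0, limma 3.58.1 on log2(TPM + 1), other scalings, filters and terms, and each sample left out. Scripts were tested on simulated data. GC and length came from GENCODE 29. Named with every sample's value are 21 members, by rule: the top pair by size of called change in each role group, those that fell with the VHL hairpin and rose with the KIM-1 hairpin beside it, and those with a called difference of effects of at least 0.5. Members and lists were chosen with earlier results of these data known.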

Additional observations from a re-analysis of the deposited data

Results flagged for a closer look

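The effect of the KIM-1 hairpin differed with and without the VHL hairpin, by a test of the difference itself in edgeR, for 23 members and for CA9. Of all genes tested, 10.2% passed with a positive difference and 9.49% with a negative one. Each value here is a difference of log2 fold changes. It is positive where the gene went further up, or less far down, with the KIM-1 hairpin next to the VHL hairpin than without it. A low level in shVHL61 also makes it more positive. P4HA2 was at 121 CPM in shVHL61, 166 with both hairpins and 155 in Luc976. VLDLR was at 23.9, 32.5 and 31.1 CPM in the same groups. CA9 gave 3.10. Among secreted factors the values were 1.22 for ADM, -1.41 for ANGPTL4 and 0.38 for STC2. Collagen and matrix enzymes gave 0.43 for P4HA1, 0.43 for P4HA2, 0.35 for PLOD1 and 0.63 for LOX. Mitochondrial genes gave 0.67 for BNIP3, 0.32 for BNIP3L, 0.41 for PDK1 and 0.61 for FAM162A. Transcription factors and cofactors gave 0.69 for BHLHE40, 0.46 for BHLHE41, 0.55 for MXI1, 0.43 for CITED2 and 0.35 for MAFF. Stress, lipid and other genes gave 0.97 for NDRG1, 0.50 for HILPDA, 0.46 for VLDLR, 1.13 for PPFIA4, 0.44 for WSB1, 0.62 for ANKZF1 and -1.74 for TMEM45A.

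Some of these differences were lost when a library was left out. BNIP3L lost its call without any of 10 libraries (0.24 to 0.34), the exceptions being Luc976 replicate 1 and shVHL61 replicate 2. MAFF lost it without any of 9 (0.30 to 0.36), the exceptions being Luc976 replicate 1, shKIM1-A1 replicate 2 and shVHL61-KIM1A1 replicate 3. PLOD1 lost it without any of 8 (0.29 to 0.35), all but Luc976 replicate 2, shKIM1-A1 replicate 2, shVHL61 replicate 1 and shVHL61-KIM1A1 replicate 1. PDK1 lost it without any of 8 (0.31 to 0.43), all but Luc976 replicate 3, shKIM1-A1 replicate 1, shVHL61 replicate 3 and shVHL61-KIM1A1 replicate 2. TMEM45A lost it without any of 6 (-1.75 to -1.43), namely Luc976 replicate 1, shKIM1-A1 replicate 3, and replicates 1 and 3 of shVHL61 and shVHL61-KIM1A1. BHLHE41 lost it without Luc976 replicate 2 (0.42), shVHL61 replicate 1 (0.40) or shVHL61-KIM1A1 replicate 3 (0.41).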

How the results depend on the processing

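Over all alternatives 3301 values of single members kept their direction and side of the threshold, 137 lost a call, 93 gained one and 0 changed sign as a call. Calls held under every alternative for 2 of 5 members in shVHL61 against Luc976, 18 of 20 in shKIM1-A1 against Luc976, 27 of 30 in shVHL61-KIM1A1 against shVHL61, 14 of 23 against shKIM1-A1, 22 of 28 against Luc976, and 10 of 23 for the difference of effects. In shVHL61 against Luc976 the members' median changed sign, to 0.0494 with length and GC trends removed (chosen after seeing the data) and 0.0124 without Luc976 replicate 2 (-0.0439 to 0.0124 with a sample left out). Members higher there were 4 with length and GC trends removed, 1 with the length trend removed, 1 with the library set as a term, 2 when no other group was fitted, 2 within set B and 0 to 1 with a sample left out; members lower were 3 with limma on log2(TPM + 1), 3 within set B and 3 to 5 with a sample left out. limma on log2(TPM + 1) gave 12 higher and 4 lower against shKIM1-A1, and 11 positive differences of effects, where the medians of all genes stood at -0.15 and -0.13. Negative differences were 1 with DESeq2, 1 in set A, 1 in set B and 1 to 2 with a sample left out. The cause of these changes was not tested. With a sample left out, positive differences numbered 17 to 21, and members higher 17 to 20 in shKIM1-A1 against Luc976, 27 to 28 in shVHL61-KIM1A1 against shVHL61, 19 to 23 against shKIM1-A1 and 23 to 26 against Luc976.

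Over all genes, 1024 were higher in shVHL61 against Luc976, but 2592 with length and GC trends removed, 1740 with the length trend removed, 1966 with the library set as a term, 591 with limma, and 525 to 601 without Luc976 replicate 1 or 3 or shVHL61 replicate 2 or 3. The 1350 lower there became 2151 with the set term and 788 to 816 without some of these samples. Differences of effects (1450 positive, 1350 negative) became 2433 and 2048 with both trends removed, 2428 and 2371 with the set term, and 757 and 2333 with limma. The 2347 lower in shKIM1-A1 became 3807 with both trends removed and 1402 with limma, and 3002 higher and 2973 lower against shKIM1-A1 became 1342 and 5379 with limma.

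Replicate numbers gave no clear pairing of the samples: 18 same-numbered pairs had correlations of -0.331 to 0.253, 6 of them over 0.1, and 5 of 18 were the best match. These correlations also carry the GC split of the libraries, so they cannot exclude a shared culture or day. With a replicate block 0 members rose and 4 fell in shVHL61, 18 and 2 in shKIM1-A1, 27 and 2 in shVHL61-KIM1A1 against shVHL61, 21 and 2 against shKIM1-A1, 25 and 3 against Luc976, and 17 and 2 differences passed. Depth limits STC1, RORA, TMEM45A and ANKRD37, at under 3 CPM.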

Other observations

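Relatives of the members, 51 genes of the same families that are not among the 34, gave these counts. Of 41 tested, 11 rose and 17 fell with both hairpins against Luc976 (median -0.15), where 25.1% and 26.2% of all genes did. In shKIM1-A1 6 rose and 10 fell, against 14.8% and 16.5% of all genes, and in shVHL61 3 rose and 6 fell, against 7.20% and 9.49%. INSIG1, a relative of INSIG2, rose by 0.40 with both hairpins, and LOXL1, a relative of LOX, was 0.64 higher in shVHL61-KIM1A1 than in shVHL61. PDK4, a relative of PDK1, fell by 1.19 in shKIM1-A1 and 0.95 with both hairpins. G0S2, which like HILPDA restrains triglyceride breakdown, rose by 0.86 in shKIM1-A1 and was lower in shVHL61-KIM1A1 against shKIM1-A1, at -1.17. KDM5B, another histone demethylase, rose by 0.44 in shVHL61 and 0.52 with both hairpins. The list was chosen with results of these data known, and its difference from the members was not tested.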
